A study of Mus musculus with 32 samples.

Results

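The arterial and venous identity genes described here are 10 genes by which endothelial cells on the arterial and on the venous side of the circulation are told apart. They comprise 6 arterial genes, Efnb2, Sox17, Bmx, Sema3g, Unc5b and Nrp1, and 4 venous genes, Nr2f2, Ephb4, Slc38a5 and Vwf. They were chosen by name, through the Ensembl identifiers that carry these symbols, and all 10 were found among the 55357 genes of the count table. The study asked how loss of Notch3 and a CADASIL mutation in Notch3 change the transcriptome of brain arteries, which were dissected from mice, 1 library per mouse, and sequenced after poly(A) selection. The 32 libraries fall into 4 groups of 8. Notch3-/- mice, which lack functional Notch3, were compared with Notch3+/+ mice, both at 3 months of age, and TgNotch3R169C mice were compared with WT mice, which lack the transgene, both at 12 months of age. The TgNotch3R169C line carries mutant rat Notch3 on an artificial chromosome, in addition to its own mouse Notch3, and the transgene lies on the X chromosome. Per the study's methods both lines were backcrossed to C57BL/6 and both sexes were used, and the labels do not give the sex of a mouse. The samples are whole arteries, so that endothelial cells are a minority beside smooth muscle cells and fibroblasts, and fewer cells of a type cannot be told apart from less RNA per cell.

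Arteries and veins are lined by endothelium of different character, set up early in development. Notch signalling together with SoxF transcription factors promotes the arterial state, whereas the nuclear receptor COUP-TFII, the product of Nr2f2, holds the venous state and restrains Notch signalling. The ephrin-B2 ligand on arterial cells and its receptor EphB4 on venous cells are the classical pair that marks the boundary. NOTCH3 itself acts in the smooth muscle cells and pericytes around the endothelium.

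Among the arterial genes, Efnb2 (ENSMUSG00000001300, chromosome 8) encodes ephrin-B2, Sox17 (ENSMUSG00000025902, chromosome 1) a SoxF transcription factor and Bmx (ENSMUSG00000031377, chromosome X) a Tec-family tyrosine kinase. Sema3g (ENSMUSG00000021904, chromosome 14) encodes a secreted class 3 semaphorin, Nrp1 (ENSMUSG00000025810, chromosome 8) a co-receptor for such semaphorins and for VEGF, and Unc5b (ENSMUSG00000020099, chromosome 10) a netrin receptor. Among the venous genes, Nr2f2 (ENSMUSG00000030551, chromosome 7) encodes COUP-TFII, Ephb4 (ENSMUSG00000029710, chromosome 5) the ephrin-B2 receptor, Slc38a5 (ENSMUSG00000031170, chromosome X) a glutamine transporter and Vwf (ENSMUSG00000001930, chromosome 6) von Willebrand factor, a clotting protein stored in endothelial granules. Of these, for example, Nr2f2 and Nrp1 are also expressed by mural cells or fibroblasts, and Nrp1 and Unc5b by neurons. The others, Efnb2 included, may be expressed outside the endothelium too, and levels in whole arteries do not show the cell of origin. All 10 genes passed the filter on low counts in each comparison, with raw counts per library between 521 for Unc5b and 49781 for Vwf.

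RefSeq promoter sequence (GRCm38.p6) was at hand for 8 of the 10 genes, all but Sox17 and Vwf. The bases just upstream of the annotated start are shown for 3 genes on which the results below turn: Bmx and Sema3g, 2 arterial genes whose levels were correlated from mouse to mouse, and Nr2f2, the venous regulator with the smallest p-value in TgNotch3R169C mice. Capitals mark matches to 1 of 3 motifs searched on both strands, the SOX motif AACAAT, the RBPJ (Notch effector) motif TGGGAA and the nuclear receptor motif AGGTCA, which have no overlap with each other.
Bmx, chrX:164258194-164258443, minus strand: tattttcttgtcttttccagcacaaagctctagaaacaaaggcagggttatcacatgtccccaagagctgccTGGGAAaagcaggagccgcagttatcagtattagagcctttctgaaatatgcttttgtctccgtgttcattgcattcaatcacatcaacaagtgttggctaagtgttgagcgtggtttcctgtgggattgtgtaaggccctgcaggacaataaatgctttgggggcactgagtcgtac
Sema3g, chr14:31217623-31217859, plus strand: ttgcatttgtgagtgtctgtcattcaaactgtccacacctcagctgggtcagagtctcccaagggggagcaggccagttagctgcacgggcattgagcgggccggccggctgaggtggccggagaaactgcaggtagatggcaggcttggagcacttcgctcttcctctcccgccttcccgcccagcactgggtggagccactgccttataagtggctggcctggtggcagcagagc
Nr2f2, chr7:70366747-70366996, minus strand: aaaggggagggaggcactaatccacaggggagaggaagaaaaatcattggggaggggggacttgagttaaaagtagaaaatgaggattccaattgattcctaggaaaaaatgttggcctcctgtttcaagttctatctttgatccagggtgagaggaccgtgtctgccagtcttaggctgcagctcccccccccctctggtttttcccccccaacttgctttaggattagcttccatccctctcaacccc
The Bmx window holds 1 RBPJ match, TGGGAA on the same strand, 178 to 173 bases before the start, and the Sema3g and Nr2f2 windows hold no match to any of the 3 motifs. The Sema3g sequence ends at 237 bases, where an annotated untranslated exon begins. Over the full 250 bases, the Slc38a5 promoter, 128 bases of which lie in untranslated exons of other Slc38a5 transcripts and which is therefore not printed, holds 1 RBPJ match on the opposite strand, Nrp1 holds 1 nuclear receptor match, and the windows of Efnb2, Unc5b and Ephb4 hold none. Among 32851 promoter windows of the same length, 9.42% hold the SOX motif, 21.6% the RBPJ motif and 14% the nuclear receptor motif. The windows differ in base composition: GC content is 72% with 27 CpG sites in Efnb2 and 66.8% with 27 in Unc5b, against 45.6% with 4 in Bmx and 50% with 1 in Nr2f2, where the median window has 52.4% and 6.

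Library totals lay between 20289487 and 54481934 counts. Notch3 was measured first as a check of the labels: its mean level was 83.5 ± 11.7 CPM (counts scaled to a common library size by TMM; SD, n = 8) in Notch3+/+ and 16.3 ± 1.8 in Notch3-/- mice, and 73.0 ± 8.2 in WT and 181 ± 35.0 in TgNotch3R169C mice, without overlap in either comparison. In 7 libraries, the 8 choroid plexus markers summed to between 13058 and 38795 CPM, against at most 945 CPM in the others. These were Notch3-/- replicate 8, WT replicates 2, 4, 5 and 6, and TgNotch3R169C replicates 5 and 8, so that none was in the Notch3+/+ group. For part of the results, the value without them is also given. The pan-endothelial list (Pecam1, Cdh5, Tie1 and 7 others) summed to medians of 1485 CPM in Notch3+/+, 1557 in Notch3-/-, 1246 in WT and 1322 in TgNotch3R169C mice, and no gene of the list was at 0 in any group.

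Compared per length, as mean CPM per kb of exon over the 32 libraries, Vwf was the highest of the 10 genes at 57.6 ± 11.9 (SD). Ephb4 followed at 28.3 ± 2.4, Sema3g at 24.2 ± 5.3, Efnb2 at 23.8 ± 2.7, Nr2f2 at 22.5 ± 2.3 and Bmx at 19.4 ± 4.6, and each of these differed from its neighbour in the order by less than the larger of their SDs, except for Vwf and Ephb4. Slc38a5 at 17.3 ± 4.8, Sox17 at 16.9 ± 3.6 and Nrp1 at 15.5 ± 1.9 could not be set apart in the same way, whereas Unc5b was far below at 3.81 ± 0.62. Arterial and venous genes were thus interleaved in these arteries, and the venous receptor Ephb4 had a per-length level that was not below that of its arterial ligand Efnb2.

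**Figure D1:**
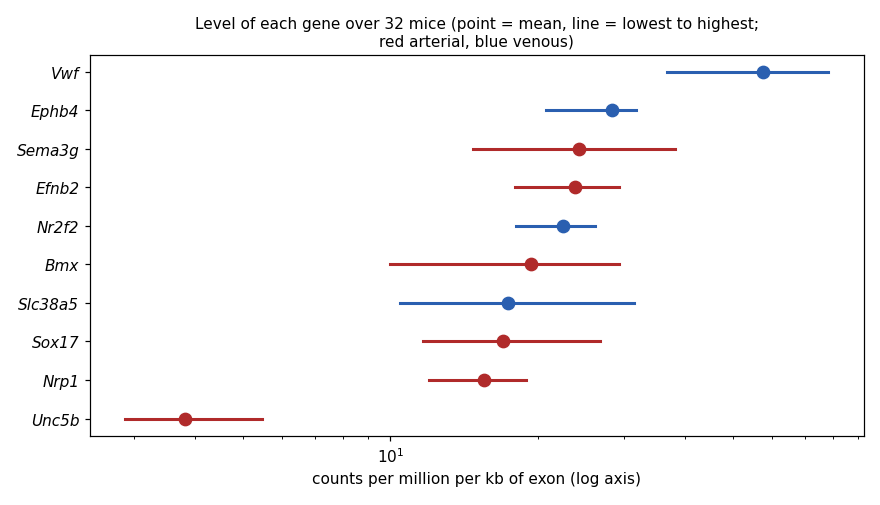
Level of each gene as CPM per kb of exon on a log axis, over 32 mice. Points are means and lines run from the lowest to the highest mouse, arterial genes in red and venous genes in blue, with Vwf highest at 57.6 and Unc5b lowest at 3.81.

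Loss of Notch3 at 3 months changed none of the 10 genes at an adjusted p below 0.05 (edgeR quasi-likelihood test, Benjamini-Hochberg over 17714 genes), where 0.649% of all genes tested were called. DESeq2 and limma voom also called 0 of 10, and 1 of 10 had an unadjusted p below 0.05, where 7.69% of all genes did. Differences of the members were small, and over all 10 genes the 95% intervals of the fold change ran from 0.846 to 1.497.

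Sox17 had the smallest p in this comparison. Its level was 56.0, 81.3 and 98.6 CPM (lowest, median and highest of 8 mice) in Notch3+/+ and 66.9, 94.7 and 127.7 CPM in Notch3-/- mice. The groups overlapped, with 3 Notch3-/- mice above the highest Notch3+/+ mouse and 7 of 8 above the Notch3+/+ mean. The log2 fold change was 0.30 ± 0.13 (SE), with an unadjusted p of 0.035 and an edgeR adjusted p of 0.587. Sema3g was alike in size: it ran from 72.9 over a median of 112 to 134 CPM in Notch3+/+ and from 89.3 over 127 to 173 CPM in Notch3-/- mice. Again 7 of 8 Notch3-/- mice lay above the control mean and the groups overlapped. Its log2 fold change was 0.29 ± 0.14, and the edgeR adjusted p was 0.654. Vwf, labelled venous, had a log2 fold change of 0.26 ± 0.15 and an edgeR adjusted p of 0.759, and its median was 809 CPM in the controls against 1044 CPM in mutants. Platelets also carry Vwf, and the 4 platelet markers tested had positive log2 fold changes too (median 0.11, none called), whose part in the result was not tested.

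The ephrin pair was level between the groups. Efnb2 was 172 ± 20.2 CPM (SD, n = 8) in Notch3+/+ and 166 ± 18.5 CPM in Notch3-/- mice, and Ephb4 was 134 ± 8.3 and 133 ± 10.6 CPM. Their log2 fold changes were -0.06, with a 95% interval from -0.22 to 0.10, and -0.01, with an interval from -0.12 to 0.09. For the remaining genes, Bmx, Unc5b, Nrp1 and Slc38a5 had positive log2 fold changes between 0.07 and 0.13 and Nr2f2 had one of -0.09, with edgeR adjusted p-values between 0.828 and 0.966.

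Of the 10 pan-endothelial genes, 9 had a positive log2 fold change in Notch3-/- mice (median 0.11, none called), and the median over the members was also 0.11, against -0.0011 over all genes tested. With the mean level of the pan-endothelial list as a covariate, the log2 fold change was 0.09 for Sox17, 0.07 for Sema3g and 0.10 for Vwf. Smooth muscle markers were lower in the same mice, with 6 of 8 called (median log2 fold change -0.63). That list summed to between 2376 and 4142 CPM in Notch3+/+ and between 1596 and 2416 CPM in Notch3-/- mice, with little overlap. With that list as the covariate the log2 fold change of Sox17 was 0.74 and that of Sema3g 0.65, both not called. Since the covariate nearly separates the groups, this fit cannot tell it apart from genotype, and these values are no adjusted effect.

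**Figure D2:**
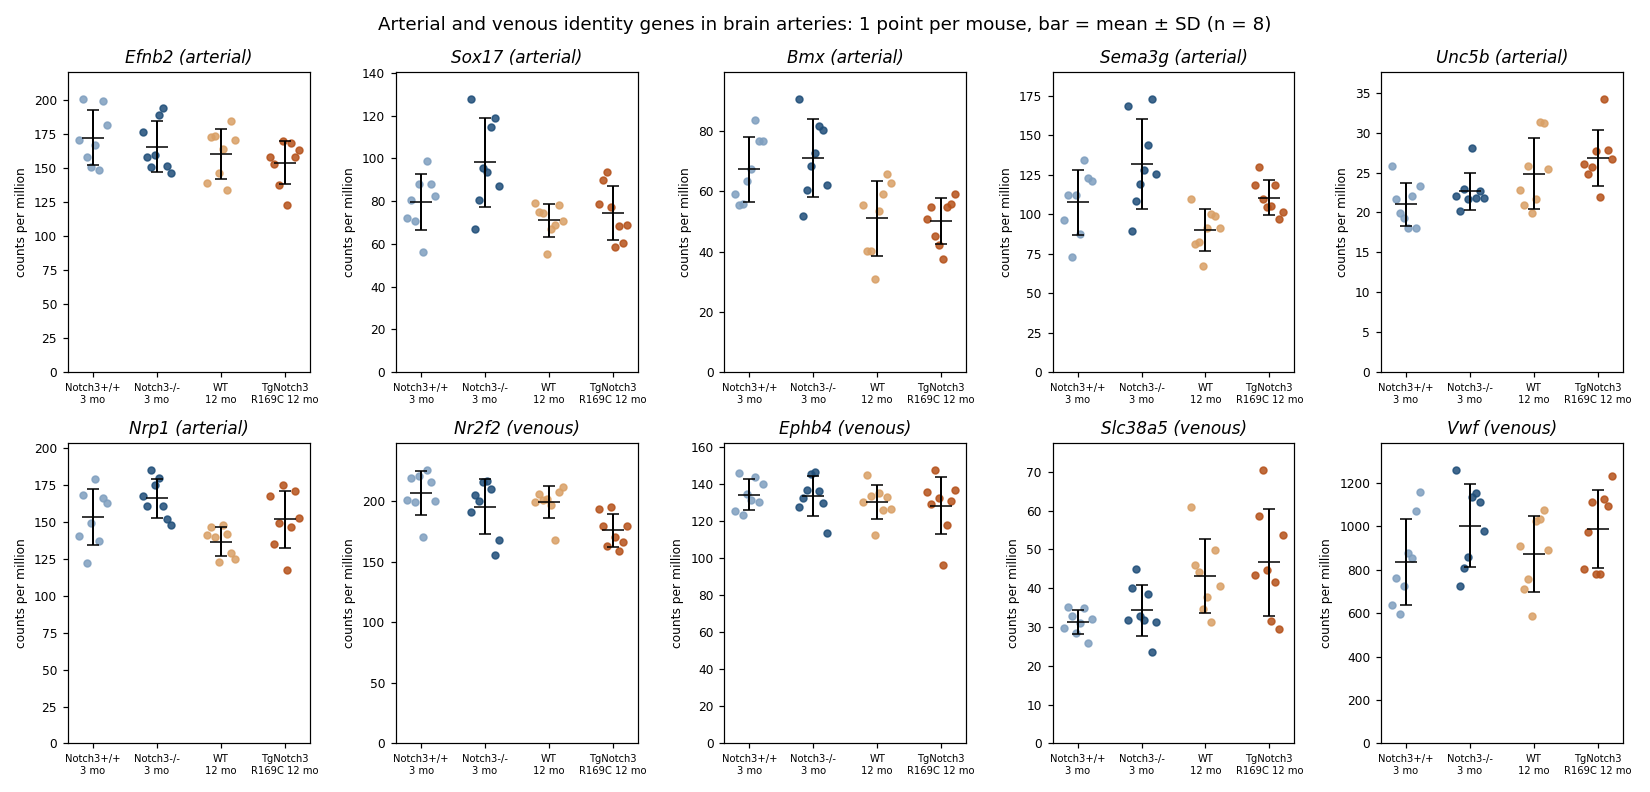
Level of each gene in each mouse, in CPM on an axis from 0, by group, with the mean and SD of 8 mice as bars. The groups overlap for all 10 genes in each comparison, and Nr2f2 has its lowest mean, 176, in TgNotch3R169C mice. The means of the groups at 12 months are the highest for Slc38a5 and Unc5b. They are the lowest for Bmx, Sox17, Efnb2, Nrp1 and Ephb4. Of these genes, only Slc38a5 and Bmx have a gap between the ages that exceeds the SD.

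In the CADASIL model at 12 months, again none of the 10 genes was called (edgeR, 17731 genes), where 0.113% of all genes tested were. DESeq2 and limma voom called 0 of 10 as well, and 2 of 10 had an unadjusted p below 0.05, where 7.27% of all genes did. These were the venous regulator Nr2f2, lower in TgNotch3R169C mice, and the arterial semaphorin Sema3g, higher. The 95% intervals of the fold change over the 10 genes ran from 0.796 to 1.40.

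Nr2f2 was 168, 202 and 212 CPM (lowest, median, highest) in WT and 159, 175 and 195.5 CPM in TgNotch3R169C mice. All 8 TgNotch3R169C mice lay below the WT mean, and 3 below the lowest WT mouse. Its log2 fold change was -0.18 ± 0.05 (SE), with a 95% interval from -0.29 to -0.07, an unadjusted p of 0.00315 and an edgeR adjusted p of 0.45. The log2 fold change was also -0.18 with the pan-endothelial list as a covariate, and it was -0.23 without the libraries rich in choroid plexus RNA.

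Sema3g was 67.0, 91.4 and 109.6 CPM in WT and 96.9, 107 and 129.8 CPM in TgNotch3R169C mice. All 8 TgNotch3R169C mice lay above the WT mean, 3 of them above the highest WT mouse, and the groups overlapped between 96.9 and 109.6 CPM. The log2 fold change was 0.29 ± 0.09, with an unadjusted p of 0.00361 and an edgeR adjusted p of 0.47. It was 0.22 with the pan-endothelial list as a covariate and 0.23 without the libraries rich in choroid plexus RNA. Nrp1 had a log2 fold change of 0.15 ± 0.07 in the same direction, with 5 of 8 TgNotch3R169C mice above the highest WT mouse and 1 below the lowest, and an edgeR adjusted p of 0.679. Without the libraries rich in choroid plexus RNA it was 0.23. With the smooth muscle list as a covariate, the log2 fold change was 0.26 for Nrp1, 0.42 for Sema3g and -0.17 for Nr2f2, with edgeR adjusted p-values of 0.145, 0.109 and 0.247.

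The other 7 genes gave log2 fold changes between -0.06 and 0.18. Efnb2 was 160.4 ± 18.5 CPM in WT and 154 ± 15.9 CPM in TgNotch3R169C mice, Ephb4 130.2 ± 9.3 and 128 ± 15.3 CPM, and Sox17 71.1 ± 7.6 and 74.5 ± 12.7 CPM. Bmx was 51.0 ± 12.5 CPM in WT and 50.04 ± 7.6 CPM in TgNotch3R169C mice. Its log2 fold change was -0.03, and -0.15 without the libraries rich in choroid plexus RNA. Slc38a5 varied most from mouse to mouse, from 29.6 to 70.4 CPM in the TgNotch3R169C group, and the 95% interval of its log2 fold change ran from -0.25 to 0.48. All 10 pan-endothelial genes had a positive log2 fold change here (median 0.10, none called), the median over the members was 0.09 and that over all genes tested was -0.00735. All 8 neuron markers (median 0.27) and all 7 astrocyte markers (median 0.15) had a positive log2 fold change as well, and all 8 smooth muscle markers (median -0.22) and all 8 choroid plexus markers (median -1.07) had a negative one, with none called. The 4 platelet markers tested were negative too (median -0.09, none called), while Vwf was positive at 0.18. The part of these lists in the results was not tested.

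Other genes of the arterial list did pass the test in TgNotch3R169C mice. Gja5, which encodes the arterial gap junction protein connexin 40, was 21.1 ± 3.6 CPM in WT and 31.9 ± 3.6 CPM in TgNotch3R169C mice (log2 fold change 0.60 ± 0.10, edgeR adjusted p = 0.0189). Eln, the gene of elastin, which smooth muscle cells and fibroblasts also make, was 532 ± 66.3 and 799.6 ± 120.4 CPM (log2 fold change 0.59 ± 0.09, edgeR adjusted p = 0.0189). They were the 2 of 20 other arterial genes called, and 18 of the 20 had a positive log2 fold change (median 0.20). Over all genes tested, 0.113% were called and 47% were positive. Stmn2 is on both this list and the neuron list, and the part of other cell types in these counts was not tested. Of 22 semaphorin, VEGF and netrin partners, 1 was called: Ntn4, which encodes netrin-4, rose from 61.1 ± 3.1 to 76.2 ± 6.5 CPM (log2 fold change 0.32 ± 0.05, edgeR adjusted p = 0.0189). The next smallest p of that list was that of Vegfb (-0.18, not called). Without the libraries rich in choroid plexus RNA, 2 of all genes were called in this comparison, against 20 with them. Gja5, Eln and Ntn4 thus cannot all have stayed called in that fit, and whether any of them did is not given here. No gene was called among 14 other venous, 8 capillary and 7 ephrin-B and Eph receptor genes and 4 relatives of Sox17 and Nr2f2, where Selp (log2 fold change 0.76), Flrt2 (-0.20), Slc16a1 (0.22), Slco1c1 (-0.67), Efnb3 (0.18), Epha4 (0.11), Sox18 (0.29) and Nr2f6 (-0.10) had the smallest p-values of their lists.

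In Notch3-/- mice, no gene of these 6 lists was called. The smallest p-values of their lists belonged to Jag2 (log2 fold change 0.26), a Notch ligand, and Hey2 (-0.30), a Notch target, to Flrt2 (-0.14) and Ch25h (0.25), Slc16a1 (-0.11) and Slco1c1 (0.50), Efnb1 (-0.05) and Epha4 (-0.06), Sema3a (-0.30) and Sema3e (-0.21), and Sox7 (0.27) and Sox18 (0.36), the other SoxF factors.

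**Figure D3:**
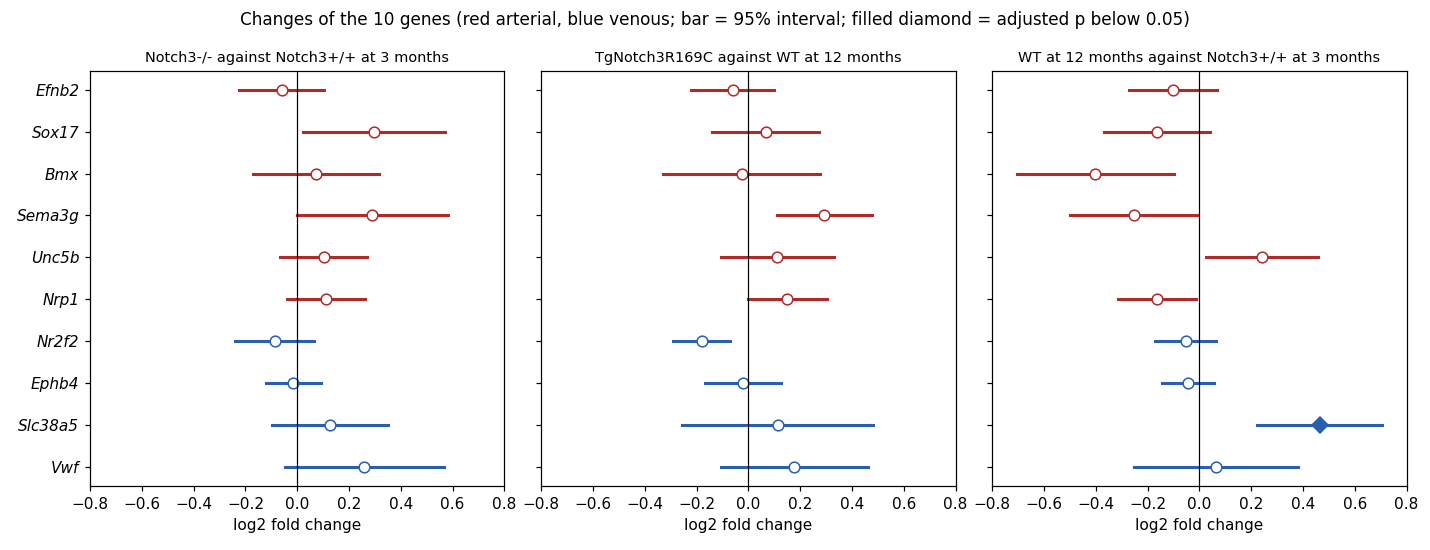
Log2 fold change of each gene in the comparisons of 2 groups, with 95% intervals, arterial genes in red and venous genes in blue. Only the filled diamond, Slc38a5 between the control groups at 0.46, passed an adjusted p of 0.05.

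The 2 mutant comparisons share no library. Of the 10 genes, 9 had the same sign in both, against 47.2% of the 17429 genes tested in both, and the exception was Bmx. Several of the genes vary together from mouse to mouse, so they do not count as 10 separate observations. The difference between the 2 changes was tested in a fit of all 4 groups: it called 0 of 10 members (edgeR, 18555 genes), where 0.35% of all genes were called, and none had an unadjusted p below 0.05. DESeq2 and limma voom called 0 of 10 too. For Sema3g the difference was 0.01 on the log2 scale (95% interval from -0.34 to 0.35), and for Nr2f2 it was -0.09 (from -0.27 to 0.10). The largest in size was that of Sox17, at -0.23 (from -0.56 to 0.11). Without the libraries rich in choroid plexus RNA, the difference was -0.17 for Nr2f2 and -0.18 for Slc38a5 (-0.01 with them). Among the other arterial genes, 1 of 20 was called for this difference, Eln (0.84 ± 0.16 on the log2 scale, edgeR adjusted p = 0.00498), and the next was Gja5 (1.01 ± 0.26, edgeR adjusted p = 0.103).

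The control groups give the background against which each mutant was read. WT mice at 12 months and Notch3+/+ mice at 3 months differ in age and in mouse line, which cannot be told apart here, and this comparison shares its libraries with the others. It called 1 of 10 members, the transporter Slc38a5 (edgeR, 17643 genes), where 7.92% of all genes tested were called. At an unadjusted p below 0.05 there were 5 of 10, where 24.2% of all genes passed. Besides Slc38a5 these were Unc5b, higher in WT mice, and Bmx, Sema3g and Nrp1, lower.

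Slc38a5 was 25.9, 31.6 and 35.2 CPM (lowest, median, highest) in Notch3+/+ and 31.3, 42.5 and 61.0 CPM in WT mice. All 8 WT mice lay above the Notch3+/+ mean and 6 above the highest Notch3+/+ mouse. The log2 fold change was 0.46 ± 0.11 (SE), with a 95% interval from 0.22 to 0.71 and an edgeR adjusted p of 0.0207. It was 0.64 without the libraries rich in choroid plexus RNA (edgeR adjusted p = 0.0133), and 0.60 with the pan-endothelial list as a covariate (edgeR adjusted p = 0.0157). The call was lost with the smooth muscle list as a covariate (log2 fold change 0.53, edgeR adjusted p = 0.543), a fit in which 0 of all genes were called. That list summed to between 2376 and 4142 CPM in Notch3+/+ and between 1319 and 1975 CPM in WT mice, without overlap. The pericyte genes Kcnj8 (log2 fold change 0.43, edgeR adjusted p = 0.021) and Abcc9 (0.48, edgeR adjusted p = 0.00281) were also called higher in WT mice. They were the 2 of 6 pericyte markers called. Of the 6, 4 had a positive and 2 a negative log2 fold change (median 0.05), and their part in the result was not tested.

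Bmx was 55.5, 65.4 and 83.7 CPM in Notch3+/+ and 30.9, 54.5 and 65.9 CPM in WT mice. All 8 WT mice lay below the Notch3+/+ mean and 5 below the lowest Notch3+/+ mouse. The log2 fold change was -0.40 ± 0.14, with an edgeR adjusted p of 0.0911. With the log2 CPM of Xist as a covariate, since Bmx is X-linked and both sexes were used, it was -0.42 with an SE of 0.09 and passed the threshold (edgeR adjusted p = 0.0128), and without the libraries rich in choroid plexus RNA it was -0.27 (edgeR adjusted p = 0.315). With the smooth muscle list as a covariate it was -0.01 with an SE of 0.31 (edgeR adjusted p = 0.996). Unc5b had a log2 fold change of 0.24 ± 0.10, Sema3g one of -0.25 ± 0.12 and Nrp1 one of -0.16 ± 0.07, with edgeR adjusted p-values between 0.156 and 0.199. Nr2f2, Ephb4 and Vwf had log2 fold changes of -0.05, -0.04 and 0.06.

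Of the 20 other arterial genes, 6 were called in the same comparison, all lower in WT mice, and 17 had a negative log2 fold change (median -0.23), where 7.92% of all genes tested were called and 50.6% were positive. Gja5 had a log2 fold change of -1.16 ± 0.20 (47.1 CPM in Notch3+/+ and 21.1 in WT mice), Eln one of -0.66 ± 0.10 (839 and 532 CPM) and Gja4, the gene of connexin 37, one of -0.53 ± 0.13 (38.8 and 26.9 CPM). The other 3 were Cytl1 (-0.52 ± 0.11), the elastic fibre gene Fbln5 (-0.37 ± 0.09) and Edn1, the gene of endothelin-1 (-0.31 ± 0.08). Of the 14 other venous genes, 8 were positive and 1 was called, lower in WT mice. Selp, the gene of P-selectin, had a log2 fold change of -0.52 and was not called. Of 8 capillary genes, the lactate transporter gene Slc16a1 was lower (-0.31 ± 0.08) and Slco1c1, a thyroid hormone carrier gene that choroid plexus epithelium also expresses, was higher (1.33 ± 0.34). Of the partners, the semaphorin receptor gene Plxnd1 (-0.30 ± 0.08), the guidance cue gene Sema3a (-0.42 ± 0.10) and Ntn4 (-0.48 ± 0.08) were called lower and Vegfb (0.26 ± 0.05) higher, as 4 of 22. None of 7 ephrin-B and Eph receptor genes (smallest p-values for Efnb1, -0.14, and Ephb1, 0.59) and none of the 4 relatives (Nr2f1, 0.32, and Sox7, -0.05) was called. All 10 pan-endothelial genes were negative (median -0.15), of which Pecam1 was called (-0.52 ± 0.09, edgeR adjusted p = 0.00285), and 7 of 8 choroid plexus markers were called higher.

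To set the arterial and the venous genes side by side in each mouse, the mean log2 CPM of the 4 venous genes was subtracted from that of the 6 arterial genes. These levels were not divided by exon length, so only differences between groups can be read, not the sign. Per kb of exon, Ephb4 had a mean of 28.3 and Efnb2 one of 23.8. The difference averaged -0.99 ± 0.07 (SD, n = 8) in Notch3+/+, -0.93 ± 0.17 in Notch3-/-, -1.24 ± 0.10 in WT and -1.16 ± 0.14 in TgNotch3R169C mice. It ran from -1.09 to -0.89 in Notch3+/+ and from -1.33 to -1.04 in WT mice, so that these groups overlapped in 1 WT mouse, whereas the mutants overlapped widely with their own controls. Without the libraries rich in choroid plexus RNA, the 4 remaining WT mice lay between -1.33 and -1.18, below all 8 Notch3+/+ mice. This lack of overlap depended on Vwf. With Vwf left out of the venous genes, the difference ran from -0.43 to -0.02 in Notch3+/+ and from -0.65 to -0.15 in WT mice. Then 4 of 8 WT mice, 2 of them among the 4 not rich in choroid plexus RNA, lay above the lowest Notch3+/+ mouse. The means without Vwf were -0.22 ± 0.12 in Notch3+/+ and -0.47 ± 0.17 in WT mice, so they still differed in the same direction. Efnb2 minus Ephb4, the ligand and receptor pair alone, was 0.35 ± 0.18, 0.31 ± 0.14, 0.30 ± 0.15 and 0.26 ± 0.17 in the 4 groups in the same order, differences that were below the SD of each group.

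**Figure D4:**
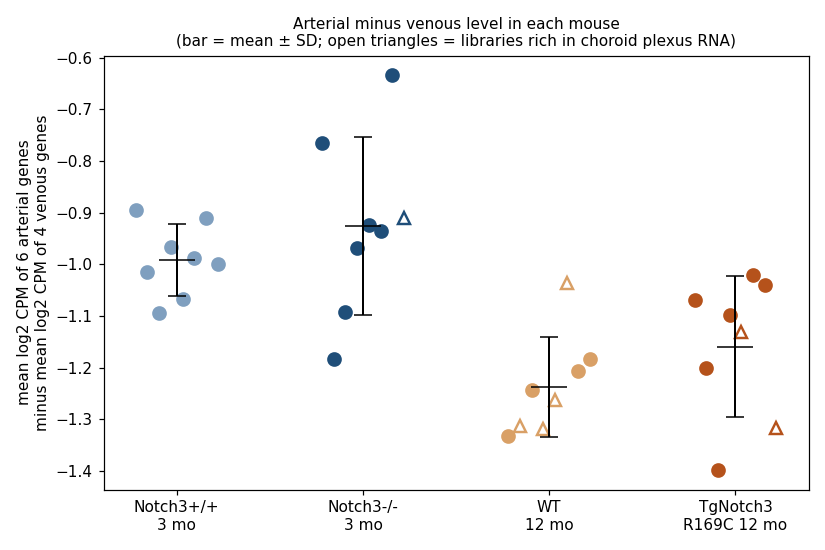
Mean log2 CPM of the arterial genes minus that of the venous genes in each mouse, by group, with the mean and SD of 8 mice as bars and libraries rich in choroid plexus RNA as open triangles. Means were -0.99 and -0.93 at 3 months and -1.24 and -1.16 at 12 months, and the spread within Notch3-/- mice, 0.17, was the widest.

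The genes were then compared for how they vary between mice of one group, from log2 CPM after removal of the group means, over the 32 libraries. Among 45 pairs of members, 6 had a permutation p of Pearson's r below 0.05 after Benjamini-Hochberg adjustment. Bmx and Vwf, an arterial and a venous gene, had the highest correlation (Pearson's r = 0.83, Spearman's rho = 0.81, permutation p = 1e-05 for each, the smallest that 100000 permutations can give, adjusted p = 0.00015 and 0.000225), and r was 0.80 without the 2 libraries farthest from the median of Vwf. Sox17 and Sema3g followed (r = 0.80, rho = 0.77, permutation p = 1e-05 for each, adjusted p = 0.00015 and 0.000225, r = 0.79 without 2 libraries), then Bmx and Sema3g (r = 0.72, rho = 0.68, permutation p = 1e-05 and 6e-05, adjusted p = 0.00015 and 0.0009, r = 0.68 without 2 libraries) and Sema3g and Vwf (r = 0.66, rho = 0.61, permutation p = 0.00014 and 0.00062, adjusted p = 0.00157 and 0.00697, r = 0.55 without 2 libraries). Vwf thus varied with the arterial members Bmx and Sema3g. Its r was 0.27 with Ephb4, -0.25 with Nr2f2 and -0.02 with Slc38a5 among the venous members, none of them called. Among the other arterial ones it was 0.26 with Nrp1, 0.33 with Efnb2, 0.34 with Unc5b and 0.44 with Sox17, also not called. The relation of Nrp1 and Ephb4 (r = 0.63, rho = 0.53, permutation p = 0.00048 and 0.00348, adjusted p = 0.00432 and 0.0308) and that of Sox17 and Bmx (r = 0.53, rho = 0.48, permutation p = 0.00155 and 0.00685, adjusted p = 0.0116 and 0.0385) did not hold without the 2 farthest libraries (r = 0.43 and 0.37, adjusted permutation p = 0.165 and 0.195). The median r was 0.26 over 15 arterial pairs, 0.30 over 6 venous pairs and 0.23 over 24 mixed pairs, and the ranges of the 3 kinds overlapped.

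Against 5 summed marker lists, 13 of 50 correlations had an adjusted permutation p of Pearson's r below 0.05, and 7 without the 2 libraries farthest from the median of each list. The 7 include Unc5b with the neuron list, which was not among the 13. Its r was 0.32 (adjusted permutation p = 0.2), and 0.58 without 2 libraries (adjusted permutation p = 0.035). The pan-endothelial list had 5 of the 13, with Sox17 (r = 0.89, rho = 0.91, permutation p = 1e-05 for each, adjusted p = 0.00025 for each, r = 0.88 without 2 libraries), Sema3g (r = 0.79, rho = 0.80, permutation p = 1e-05 for each, adjusted p = 0.00025 for each, r = 0.82), Bmx (r = 0.66, rho = 0.56, permutation p = 6e-05 and 0.00146, adjusted p = 0.001 and 0.0146, r = 0.52), Vwf (r = 0.62, rho = 0.58, permutation p = 0.00041 and 0.00123, adjusted p = 0.0041 and 0.0146, r = 0.52) and Ephb4 (r = 0.59, rho = 0.43, permutation p = 0.00148 and 0.0211, adjusted p = 0.00925 and 0.0877, r = 0.36). That of Ephb4 did not hold without the 2 libraries. For Efnb2, Nrp1, Unc5b and Nr2f2, r with the pan-endothelial list was between 0.10 and 0.23. Ephb4 had its highest r with the fibroblast list (r = 0.73, rho = 0.51, permutation p = 0.00015 and 0.00506, adjusted p = 0.00187 and 0.0422), as did Nrp1 (r = 0.61, rho = 0.42, permutation p = 0.00091 and 0.0203, adjusted p = 0.0065 and 0.0877), and neither held without 2 libraries (r = 0.46 and 0.40, adjusted permutation p = 0.0795 and 0.177). Efnb2 also had its highest r with that list (r = 0.51, rho = 0.36, permutation p = 0.00477 and 0.0512, adjusted p = 0.0238 and 0.171, r = 0.31 without 2 libraries, which did not hold). The smooth muscle list had 3 of the 13, with Sox17 (r = 0.59, rho = 0.63, permutation p = 0.00087 and 0.00039, adjusted p = 0.0065 for each, r = 0.56 without 2 libraries), Bmx (r = 0.51, rho = 0.44, permutation p = 0.00338 and 0.0179, adjusted p = 0.0188 and 0.0877, r = 0.54) and Sema3g (r = 0.48, rho = 0.49, permutation p = 0.0108 and 0.0092, adjusted p = 0.0454 and 0.0596, r = 0.54, adjusted permutation p = 0.0506 without 2 libraries). The neuron list had the remaining 2, with Nrp1 (r = -0.47, rho = -0.34, permutation p = 0.011 and 0.0677, adjusted p = 0.0454 and 0.199, r = -0.19) and Ephb4 (r = -0.44, rho = -0.43, permutation p = 0.0118 and 0.0179, adjusted p = 0.0454 and 0.0877, r = -0.26), and neither held without 2 libraries. The choroid plexus list had a negative r with all 10 genes, from -0.46 to -0.12, none of them called.

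**Figure D5:**
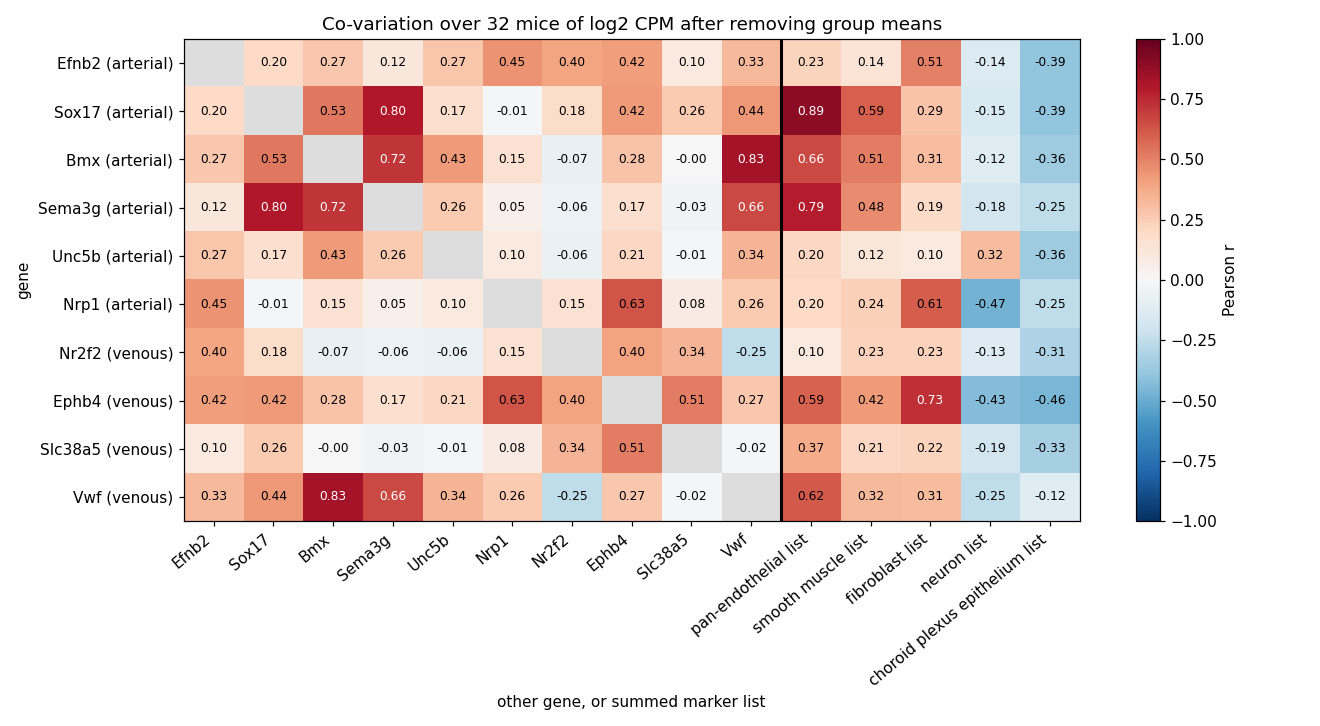
Pearson's r over 32 mice between the log2 CPM of each gene and of each other gene, and between each gene and the summed level of 5 marker lists, after removal of group means. Sox17, Bmx, Sema3g and Vwf have r between 0.44 (Sox17 and Vwf, not called) and 0.83 with each other. Their r to the pan-endothelial list lies between 0.62 and 0.89. Among the venous genes Vwf has an r of 0.27 with Ephb4, -0.25 with Nr2f2 and -0.02 with Slc38a5.

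As a description of the same pattern, the genes nearest to each member by Pearson's r over these 32 libraries were sought among 18555 genes. Sox17 was nearest to Acvrl1 (0.91), Efna1 (0.89) and Sox13 (0.88), and Ephb4 to Cdh5 (0.86), Prkcd (0.86) and Tfpi (0.83), where Acvrl1 encodes the endothelial receptor ALK1 and Cdh5 VE-cadherin. Bmx was nearest to Ptprb (0.90), Reck (0.88) and Ces2b (0.87), and Vwf to Dkk2 (0.91), Cmklr1 (0.86) and Ces2b (0.86). Sema3g was nearest to F2rl1 (0.85), Ehd4 (0.83) and Kcnn4 (0.83), of which Kcnn4 encodes an endothelial potassium channel. Slc38a5 was nearest to Tnfsf10 (0.79), Foxf1 (0.78) and the pericyte gene Kcnj8 (0.78), Nr2f2 to Rgmb (0.79), Zic2 (0.76) and Becn1 (0.71), and Efnb2 to Glt8d2 (0.78), Trib2 (0.72) and Atp13a5 (0.71). Nrp1 was nearest to Plcb3 (0.75), Trabd2b (0.73) and Srpr (0.71), and Unc5b to Doc2b (0.80), Kcna6 (0.78) and Kif26b (0.76), of which Doc2b and Kcna6 are known from neurons.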

How the data were processed

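Brain arteries of 32 mice were profiled by stranded poly(A) RNA sequencing. Per the submitters' processing notes, the authors used bcl2fastq 2.20.0.422, cutadapt 1.10, Bowtie2 2.2.8, STAR 2.5.3a and HTSeq 0.6.1p1 with build mm39, and deposited raw counts per Ensembl gene. The strand setting of counting is not given in the sources used here, and Sox17, Nr2f2 and Ephb4 overlap genes on the opposite strand.

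Counts were tested with edgeR 4.0.16 (R 4.3.3; TMM, filterByExpr, glmQLFit and glmQLFTest), Benjamini-Hochberg over all genes tested, called at an adjusted p below 0.05. DESeq2 1.42.0 and limma 3.58.1 served as alternatives. Fold changes are relative to the TMM scale. CPM used TMM over all libraries, with a prior count of 1 on the log2 scale, and exon lengths came from GENCODE on GRCm38, so levels per kb are approximate. Correlations used 100000 permutations within groups, and fewer where 2 libraries were left out. Scripts were tested on simulated data. Alternatives were other tools, scalings, filters, covariates and left-out libraries; leaving out the libraries rich in choroid plexus RNA was chosen after seeing the data.

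Members, lists and tests were chosen with earlier results of these data known. Named genes were all members, and from each fixed list the called genes, filled up to 2 by smallest p, with the 3 genes nearest to each member by correlation; Pecam1, Kcnj8 and Abcc9 were named after their values were seen. As an exception to this rule, 1 called gene of the other venous list is not reported here. Libraries of a group differed by more than counting noise. The paper describes the WT controls as age-matched littermates of the mutants. No source says which libraries share a litter or day, so litter was not modelled, and p-values measure the spread between mice.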

Additional observations from a re-analysis of the deposited data

Results flagged for a closer look

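In groups of 8 mice, a value was singled out when its gap to the nearest mouse exceeded Dixon's 95% critical value as a share of the range of its group. Among 44 groups (10 genes and Notch3 in 4 groups) this held for 4, and chance singles out about 1 in 20. Unc5b was highest in Notch3-/- replicate 5, at 28.0 CPM against 22.9 in the next mouse, a gap of 0.65 of the range. Nr2f2 was lowest in Notch3+/+ replicate 5, at 171 CPM against 199.6 in the next mouse (0.527), and lowest in WT replicate 6, at 168 against 197 CPM (0.658). Without WT replicate 6, one of the libraries rich in choroid plexus RNA, the log2 fold change of Nr2f2 in TgNotch3R169C mice was -0.21. Notch3 was lowest in TgNotch3R169C replicate 3, at 108 against 169 CPM (0.532). For no member did the test of the difference between the changes in TgNotch3R169C and Notch3-/- mice pass the threshold.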

How the results depend on the processing

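The counts of members called in the 2 mutant comparisons and in the difference between them were 0 under each alternative run. Between the control groups the count was 2 at a threshold of 0.1 (Bmx and Slc38a5), 2 with Xist as a covariate and 0 with the smooth muscle list as a covariate; for these and for the values below the cause was not tested. Slc38a5 was called in all 16 fits that left out 1 library (log2 fold change 0.37, without WT replicate 1, to 0.52; edgeR adjusted p = 0.01 to 0.0461), and Sema3g and Nr2f2 in TgNotch3R169C mice stayed uncalled (0.24 to 0.34 and -0.21 to -0.16). Correlations called with marker lists numbered 13, and 7 without 2 libraries. The 7 include Unc5b with neuron markers (r = 0.58, adjusted permutation p = 0.035), which was not among the 13. Over all genes, calls ran from 17 with the smooth muscle covariate to 280 with DESeq2 (115 as reported) for Notch3-/-, from 2 without choroid-rich libraries to 74 with DESeq2 (20) for TgNotch3R169C, from 0 with the smooth muscle covariate to 2365 with DESeq2 (1398) between controls, and from 39 without choroid-rich libraries to 153 with DESeq2 (65) for the difference.

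Replicate numbers are shared by the groups, but no source says that they mark a litter or day, and 4, 4 and 3 of 8 pairs had a correlation over 0.1, with 2, 1 and 1 of 8 libraries closest to their own number. With the replicate block the control comparison called 1 member, Bmx (-0.42, edgeR adjusted p = 0.0305) in place of Slc38a5 (0.44, edgeR adjusted p = 0.0692), and 6 of all genes in TgNotch3R169C mice; the difference for Efnb2 was -0.00033.

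Log2 values with the opposite sign to those reported, all uncalled, were as follows. In Notch3-/- mice they were Bmx -0.094 with the pan-endothelial covariate, Nr2f2 0.055, Ephb4 0.026 and Slc38a5 -0.080 with the smooth muscle covariate, and Ephb4 0.019 without choroid-rich libraries. In TgNotch3R169C mice they were Bmx 0.025 (limma voom), 0.16 (smooth muscle) and 0.0058 (Xist), Sox17 -0.067 (pan-endothelial) and -0.00043 (choroid plexus covariate), Slc38a5 -0.11 (pan-endothelial) and -0.036 (without choroid-rich libraries), Ephb4 0.033 (neuron), 0.10 (smooth muscle) and 0.0070 (without choroid-rich libraries), and Efnb2 0.018 (smooth muscle). Between controls they were Sox17 0.049, Sema3g 0.019, Nr2f2 0.0040 and Ephb4 0.036 (pan-endothelial), Nr2f2 0.018 (choroid plexus) and Sox17 0.26, Sema3g 0.20, Nr2f2 0.11 and Ephb4 0.038 (smooth muscle). For the difference they were Efnb2 -0.0049 and Sema3g -0.0019 (no filter), Slc38a5 0.0073 (limma voom), Efnb2 -0.042, Sema3g -0.033 and Unc5b -0.028 (choroid plexus), Unc5b -0.018, Ephb4 0.020 and Slc38a5 0.0089 (neuron), Efnb2 -0.044, Sema3g -0.21, Unc5b -0.0017 and Nrp1 -0.022 (smooth muscle), and Efnb2 -0.057, Sema3g -0.070 and Unc5b -0.044 (without choroid-rich libraries). Leaving out 1 library gave Ephb4 -0.030 to 0.019 in Notch3-/- mice, Bmx -0.10 to 0.035 and Ephb4 -0.053 to 0.031 in TgNotch3R169C mice, and for the difference Efnb2 -0.035 to 0.044, Ephb4 -0.040 to 0.042, Sema3g -0.062 to 0.072, Slc38a5 -0.13 to 0.074 and Unc5b -0.047 to 0.075. Correlations without 2 libraries were 0.066 for Efnb2, 0.079 for Bmx and 0.084 for Sema3g with neuron markers, -0.047 for Unc5b and -0.096 for Nrp1 with pan-endothelial markers, -0.14 for Unc5b and -0.0051 for Slc38a5 with fibroblast markers, and 0.070 for Nrp1 with choroid plexus markers.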
